A study of Mus musculus with 2 samples.

Results

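The neuropeptide genes Gal (galanin) and Nts (neurotensin) and the receptor genes Galr1, Ntsr1 and Ntsr2 were followed in single cells of the mouse lateral hypothalamic area (LHA). The 5 genes were taken by name from the 28692 genes listed in the count matrices. UMIs are barcoded molecules, each counted once. The study made 2 libraries with 10x Chromium v2 chemistry from dissected LHA slices of C57BL/6 littermates at postnatal day 30. The library labelled male pooled 3 animals and the library labelled female pooled 2 animals. No cells were sorted and no animal was treated, so groups of cells within each library were compared, and cells could not be assigned to animals. The deposit names its build as mm10, which is GRCm38.

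Galanin and neurotensin are cut from larger precursors in dense-core vesicles and act on receptors coupled to G proteins. Galr1 couples mainly to inhibitory G proteins, Ntsr1 couples mainly to Gq and phospholipase C, and Ntsr2 is a second neurotensin receptor of lower affinity known from astrocytes. In the LHA, both peptides are known from inhibitory neurons that act on orexin (Hcrt) neurons, dopamine systems, feeding and arousal.

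The promoters of the peptide genes are shown because both peptide genes were higher in inhibitory than in excitatory neurons. Each sequence is the 250 bases before the RefSeq start on GRCm38.p6, 5′ to 3′ on the gene's strand, at chr10:102490419-102490668 (minus strand) for Nts and chr19:3414545-3414794 (minus strand) for Gal. Capitals mark matches to CRE-type TGACNTCA, AP-1 type TGANTCA or the CRE core TGACG, on either strand. The GENCODE start of Nts lies inside its window.
Nts: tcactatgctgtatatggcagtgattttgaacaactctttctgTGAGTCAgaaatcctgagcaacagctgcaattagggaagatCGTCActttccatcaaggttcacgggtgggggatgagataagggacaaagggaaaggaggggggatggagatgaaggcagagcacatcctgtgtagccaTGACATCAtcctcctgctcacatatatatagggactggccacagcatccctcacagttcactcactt
Gal: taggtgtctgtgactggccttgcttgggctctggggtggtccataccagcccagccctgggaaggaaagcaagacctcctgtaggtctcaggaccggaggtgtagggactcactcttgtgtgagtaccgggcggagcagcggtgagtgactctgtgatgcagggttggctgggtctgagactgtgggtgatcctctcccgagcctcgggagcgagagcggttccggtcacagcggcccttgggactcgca

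In the Nts window, the CRE-type match began 67 bases, the CRE core 166 bases and the AP-1 type match 207 bases before the start. The Gal window held none of the 3. Of 32851 RefSeq promoter windows of this length, 7.49% held the CRE-type motif, 6.75% the AP-1 type motif and 17.8% the CRE core, which also lies within some CRE-type matches. The Nts window was 48% GC and the Gal window 62.4% GC. These letters are a description of the windows and show no binding.

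In the GENCODE M21 annotation of GRCm38, all 5 genes were protein-coding and none overlapped another annotated gene. Gal lay at chr19:3409915-3414544 on the minus strand with 6 exons in its principal transcript, and Nts at chr10:102481756-102490486 on the minus strand with 4 exons. Galr1 lay at chr18:82392380-82406777 on the minus strand with 3 exons. Ntsr1 lay at chr2:180499976-180544980 and Ntsr2 at chr12:16653382-16660227, both on the plus strand with 4 exons. Whole-gene UMI counts were used throughout, so no exon, intron or UTR was measured on its own.

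The library labelled male held 23151801 UMIs in 3439 barcodes and the library labelled female 27437142 UMIs in 3793 barcodes. The sex labels went against the data: the library labelled male had 20641 Xist UMIs and none from the Y-linked genes checked, and the library labelled female had 30 and 7618. No comparison between sexes is made for that reason. After filters, 3186 and 3520 cells stayed, of which 2041 and 2262 were neuron-like, in the libraries labelled male and female. The libraries shared 18 barcodes. The tissue label was met by Hcrt-high neurons (83 and 83) and by neurons high for melanin-concentrating hormone, Pmch (85 and 61), both peptides known from the LHA.

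Inhibitory neurons are neuron-like cells with a UMI of the vesicular GABA transporter Slc32a1 and none of the vesicular glutamate transporter Slc17a6, and excitatory neurons are the reverse. There were 986 and 1110 inhibitory neurons and 712 and 785 excitatory neurons, with 110 and 145 cells holding both transporters and 233 and 222 holding neither. A neuron-like cell was Hcrt-high or Pmch-high when that peptide gave at least 0.3% of its UMIs, whichever transporters it held. The other excitatory neurons (601 and 688) were the excitatory neurons that lay below this for both. Comparisons of the peptide-high neurons with them therefore also differ in the transporter gate. In every such pair, the library labelled male is given before the library labelled female. Levels are UMIs of a gene per 1000000 summed UMIs of a cell group (CPM), and 3′ UMI counts do not compare levels between genes.

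Gal was present above all in inhibitory neurons and in neurons without a detected transporter. Inhibitory neurons had 248 and 190 CPM of Gal, excitatory neurons 26.6 and 26.5 CPM. Among the neuron groups, neurons with neither transporter averaged 229 ± 46.4 CPM and inhibitory neurons 219 ± 40.6 CPM (SD, n = 2 libraries), a difference inside the spread of the libraries. Neurons with both transporters followed at 78.9 ± 0.676 CPM, then Pmch-high neurons at 29.6 ± 4.53 CPM and other excitatory neurons at 28.5 ± 1.21 CPM, which did not differ beyond their spread. Hcrt-high neurons had 14.6 ± 2.92 CPM, the same range as astrocyte-like cells at 14.6 ± 1.16 CPM. Mature oligodendrocyte-like cells, which should lack the peptide, held 6.73 ± 0.894 CPM. Microglia-like cells had 10.8 and 120 CPM, and 14 of the 22 Gal UMIs behind the higher value came from 1 cell. Mural-like cells had 0 and 93.6 CPM, from 0 and 16 UMIs, and fibroblast-like cells 68.4 and 22.2 CPM, from 8 and 3 UMIs, so the means of these 3 groups lay above that of Pmch-high neurons with a wide spread between the libraries.

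Nts was highest in inhibitory neurons, at 177 and 159 CPM (168 ± 13.1, SD, n = 2 libraries), and low in nearly all other groups. Excitatory neurons had 25.1 and 19.4 CPM. Neurons with neither transporter (70.1 ± 56.5 CPM) and with both (57.9 ± 14.8 CPM) lay between, and the libraries differed by more than the gap between these groups. Hcrt-high neurons had 34.6 ± 8.19 CPM, and Pmch-high neurons 4.8 ± 0.122 CPM, no more than the 4.86 ± 3.53 CPM of mature oligodendrocyte-like cells. Endothelial-like cells had 24.1 ± 1.21 CPM. In microglia-like cells (56.7 ± 18.7 CPM) 1 cell supplied 11 of the 13 UMIs of the library labelled male.

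The receptors had other patterns. Ntsr1 was highest in Hcrt-high neurons (71.4 ± 11.7 CPM), followed by inhibitory neurons (24.4 ± 0.827 CPM) and neurons with both transporters (23.1 ± 0.335 CPM), and lay at 0.692 ± 0.458 CPM in mature oligodendrocyte-like cells. Ntsr2 stood at 1572 ± 17.8 CPM in astrocyte-like cells and between 16.6 and 22 CPM, as means, in every neuron group. Mature oligodendrocyte-like cells had 28.6 ± 5.55 CPM, above the mean of every neuron group. The other named non-neuronal classes lay between 21.9 ± 1.91 CPM (endothelial-like) and 73.0 ± 3.32 CPM (microglia-like). Galr1 was scarce everywhere, with a highest mean of 5.82 ± 0.909 CPM in inhibitory neurons.

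**Figure D1:**
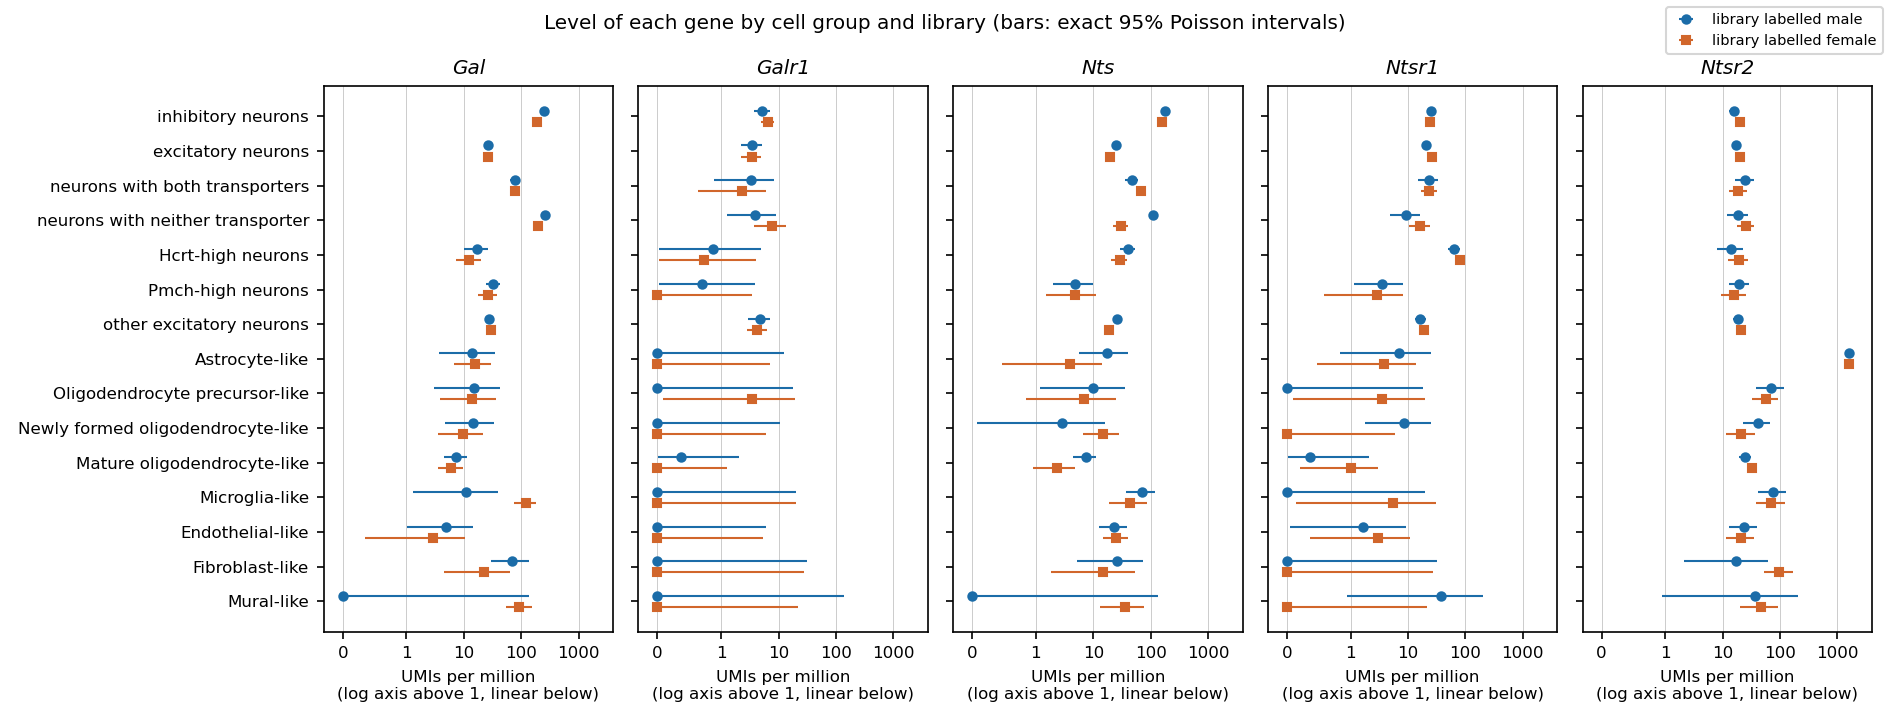
Level of each of the 5 genes, in CPM (log axis above 1), in 15 groups of cells, with blue circles for the library labelled male, orange squares for the library labelled female and lines for exact 95% Poisson intervals of counting error. Gal is highest in inhibitory neurons and neurons with neither transporter, Nts in inhibitory neurons, Ntsr1 in Hcrt-high neurons and Ntsr2 in astrocyte-like cells.

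The share of cells with a UMI depends on depth, so it was also taken after each cell was thinned to 3000 UMIs. Gal was detected in 30.1% and 29.8% of inhibitory neurons (20.4% and 20.1% thinned) and in 12.8% and 12.2% of excitatory neurons (5.86% and 6.39% thinned). Nts was detected in 23.6% and 20.1% of inhibitory neurons (17.6% and 13.5% thinned) and in 11.2% and 8.54% of excitatory neurons (7.32% and 3.78% thinned). In mature oligodendrocyte-like cells the thinned shares were 1.77% and 1.40% for Gal and 2.30% and 0.698% for Nts. Median depth was 7856.5 and 8222.5 UMIs in inhibitory, 8341.5 and 8368 in excitatory and 4170 and 4643 in mature oligodendrocyte-like cells. All shares in excitatory neurons stood above those in mature oligodendrocyte-like cells.

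Within inhibitory neurons both peptides were carried by few cells. Gal had 0 UMIs in 689 and 779 of the inhibitory neurons and 10 or more in 62 and 54, with up to 73 and 78 UMIs in a cell. Nts had 0 UMIs in 753 and 887 and 10 or more in 38 and 38, with up to 71 and 59. Gal-high and Nts-high neurons are inhibitory neurons with at least 3 UMIs of the peptide that make up 0.1% or more of the cell's UMIs. There were 85 and 69 Gal-high neurons, which held 70.4% and 58.5% of the Gal UMIs of inhibitory neurons, and 42 and 40 Nts-high neurons, which held 62.0% and 61.8% of the Nts UMIs. The threshold cut through a continuous range: 50 and 61 inhibitory neurons lay at 0.05% to 0.1% for Gal and 47 and 44 at 0.1% to 0.2%, while for Nts 43 and 46 lay just below and 22 and 24 just above.

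Inhibitory and excitatory neurons were then compared on 4 sums of UMIs, 1 for each group in each library, with the library as a block in edgeR's quasi-likelihood test. Gal had 1959 and 1794 UMIs in inhibitory neurons and 182 and 202 in excitatory neurons. Gal was higher in inhibitory neurons by 2.99 ± 0.07 on the log2 scale (SE), with a Benjamini-Hochberg adjusted p of 2.75e-59 in this test. Nts had 1404 and 1499 UMIs in inhibitory neurons and 172 and 148 in excitatory neurons, and was higher by 2.88 ± 0.07 (adjusted p = 7.87e-56 by edgeR's quasi-likelihood test). In this comparison 23.9% of 13235 genes tested were called, 11% higher and 12.9% lower. The fit has 1 residual degree of freedom against 87.7 prior degrees of freedom, so the variance was mostly shared across genes. The p-values therefore do not measure each gene's own spread between these 2 pools, which came from littermates. Ntsr1 (198 and 225 UMIs in inhibitory neurons, 143 and 197 in excitatory neurons) had a log2 change of 0.01 (adjusted p = 0.959), and Ntsr2 one of -0.11 (adjusted p = 0.625), in the same edgeR test. Without Hcrt-high and Pmch-high neurons among the excitatory ones, the Ntsr1 value became 0.47 (adjusted p = 0.0176, edgeR).

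Galr1 had 41 and 61 UMIs in inhibitory neurons and 24 and 26 in excitatory neurons, or 5.18 and 6.47 CPM against 3.50 and 3.41 CPM. Its change of 0.71 ± 0.26 passed edgeR's quasi-likelihood test (adjusted p = 0.0337). The call did not hold without the library block (adjusted p = 0.162), with DESeq2 (1.0), without the Hcrt-high and Pmch-high neurons (0.408), with stricter cell filters of at least 1000 genes and at most 10% mitochondrial UMIs (0.0904) or after thinning (0.940).

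Other genes of the peptide pathway differed as well. Of 6 genes of peptide processing, Scg5, which assists Pcsk2, was higher in inhibitory neurons (0.25 ± 0.04), and Pcsk1 (-2.59 ± 0.11), Pcsk2 (-2.13 ± 0.05), both prohormone convertases, and Pam (-0.89 ± 0.06), which amidates peptides, were lower. The list's median was -0.42, against 0.0085 over all genes tested. Of 5 genes of peptide breakdown 1 was called, where 23.9% of all genes tested were. It was the membrane endopeptidase Mme, higher by 1.74 ± 0.18. Sort1 (0.20 ± 0.07) and Sorl1 (0.44 ± 0.05), sorting receptors that bind neurotensin, were both called higher, and Plcb1, a phospholipase C of the Gq pathway, was higher by 1.17 ± 0.07. DESeq2 called 3 of the processing genes, 1 breakdown gene and Sorl1 but not Sort1. Astrocyte markers were present in both arms (6 of 6 detected, summing to 491 and 461 CPM in inhibitory and 271 and 289 CPM in excitatory neurons), and their part in these results was not tested.

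Clusters were built without the member genes, so that no member chose the cells of its own cluster, and 14 of 28 were neuron-like. Each is named by its number and leading genes. Cluster 22 (Nts, Crh, Acvr1c), 36 and 38 cells of which 91.7% and 92.1% were inhibitory, had 2042 and 2003 CPM of Nts. It made up 1.76% and 1.68% of neuron-like cells and held 44.3% and 50.1% of their Nts UMIs. The same cluster had 467 and 442 CPM of Gal, in 80.6% and 86.8% of its cells. Cluster 4 (Gal, Ecel1, Pgr15l) had 604 and 431 CPM of Gal, 49.3% and 40.8% of the neuronal Gal UMIs, and 242 and 163 CPM of Nts.

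Not all Gal-rich clusters were rich in Nts. Cluster 5 (Gal, Nxph1, Gad2) had 352 and 327 CPM of Gal but 13.8 and 30.6 CPM of Nts. It had 10.0 and 13.2 CPM of Galr1, with 21.6% and 24.5% of the neuronal Galr1 UMIs from 12.2% and 12.4% of the neurons. Cluster 17 (Ebf1, Grp, Npy) had 107 and 161 CPM of Gal and 17.8 and 7.30 CPM of Nts. The highest Galr1 levels seen in both libraries were in the excitatory cluster 11 (Ebf3, Nxph4, Calcr), at 13.1 and 16.8 CPM from 8 and 13 UMIs.

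Ntsr1 was spread over excitatory and inhibitory clusters. It reached 59.2 and 77.5 CPM in cluster 13 (Hcrt, C1ql3, Pdyn), 46.4 and 49.97 CPM in the excitatory cluster 8 (Synpr, Nos1, Ntng1) and 41.2 and 46.7 CPM in the inhibitory cluster 6 (Tac2, Syt2, Slc32a1). These 3 clusters held 19.4% and 23.3%, 14.4% and 15.02%, and 23.4% and 22.6% of the neuronal Ntsr1 UMIs. The Nts-rich cluster 22 had 5.19 and 6.63 CPM of Ntsr1, from 2 and 3 UMIs.

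**Figure D2:**
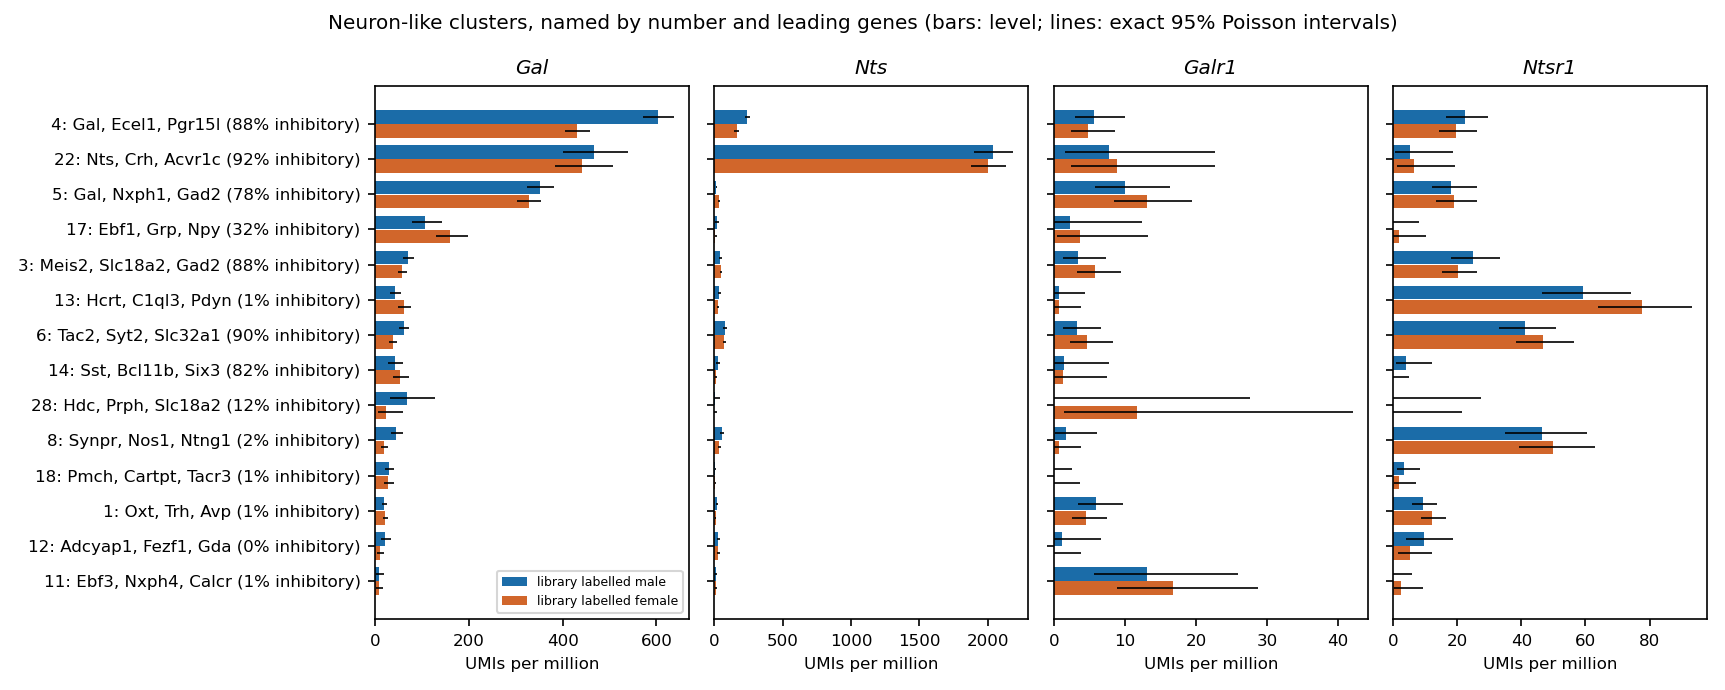
Levels of Gal, Nts, Galr1 and Ntsr1 in CPM in the 14 neuron-like clusters, with blue bars for the library labelled male, orange bars for the library labelled female and lines for exact 95% Poisson intervals. Nts peaks in cluster 22, Gal is high in clusters 4, 22 and 5, and Ntsr1 is high in clusters 13, 8 and 6.

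Over the 28 clusters, which share libraries and differ in depth, Pearson correlations of log2 levels with 10 CPM added placed Nrxn3 (0.84), Dlx1 (0.82), Isl1 (0.81), Gad2 (0.80) and Irs4 (0.80) nearest to Gal. Nearest to Nts were Crh (0.86), Brs3 (0.81), Plch1 (0.80), Dlx1 (0.76) and Ecel1 (0.75). Gal and Nts correlated at 0.73 over all 28 clusters and at 0.66 over the 14 neuron-like ones. Nearest to Ntsr2 were Agt (0.98), Slc39a12 (0.98), Slc14a1 (0.97), Acsbg1 (0.97) and Fgfr3 (0.96). The values for Galr1 (0.76 at most, for Clpp) rest on its maximum of 15.2 CPM.

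Gal-high and Nts-high neurons overlapped in few cells. Among inhibitory neurons 6 cells of the library labelled male and 7 of the library labelled female were high for both, which was 7.06% (exact 95% Clopper-Pearson interval 2.63 to 14.7) and 10.1% (4.18 to 19.8) of the Gal-high neurons. This was 14.3% and 17.5% of the Nts-high neurons. Of the inhibitory neurons that were not Gal-high, 36 of 901 (4.00%) and 33 of 1041 (3.17%) were Nts-high. All 6 double-high cells of the library labelled male and 5 of the 7 of the library labelled female lay in cluster 22. No excitatory neuron was high for both, out of 3 and 7 Gal-high and 2 and 2 Nts-high cells, and among neurons with neither transporter 3 and 0 were.

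Detection of the 2 peptides in the same cell was more frequent than the high calls show. After thinning, 63 of 193 Gal-positive inhibitory neurons (32.6%) in the library labelled male and 45 of 217 (20.7%) in the library labelled female also had an Nts UMI, against 13.7% and 11.7% of the Gal-negative ones. The 13 double-high cells all had 10.8% to 16.1% of their UMIs from mitochondrial genes. Cells above 10% made up 52.8% and 63.6% of cells high for Nts only, 36.7% and 48.4% of cells high for Gal only and 31.7% and 37.5% of the remaining inhibitory neurons. With cells over 10% left out, 0 double-high cells were left in either library, while the thinned shares (chosen after the data had been seen) became 29.8% and 16.5% of Gal-positive cells, against 13.5% and 12.2% of Gal-negative ones. The part of RNA quality in the overlap was not tested. Doublet scores of the double-high cells (medians 0.0274 and 0.0279) were below those of inhibitory neurons high for neither peptide (0.0492 and 0.0516).

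**Figure D3:**
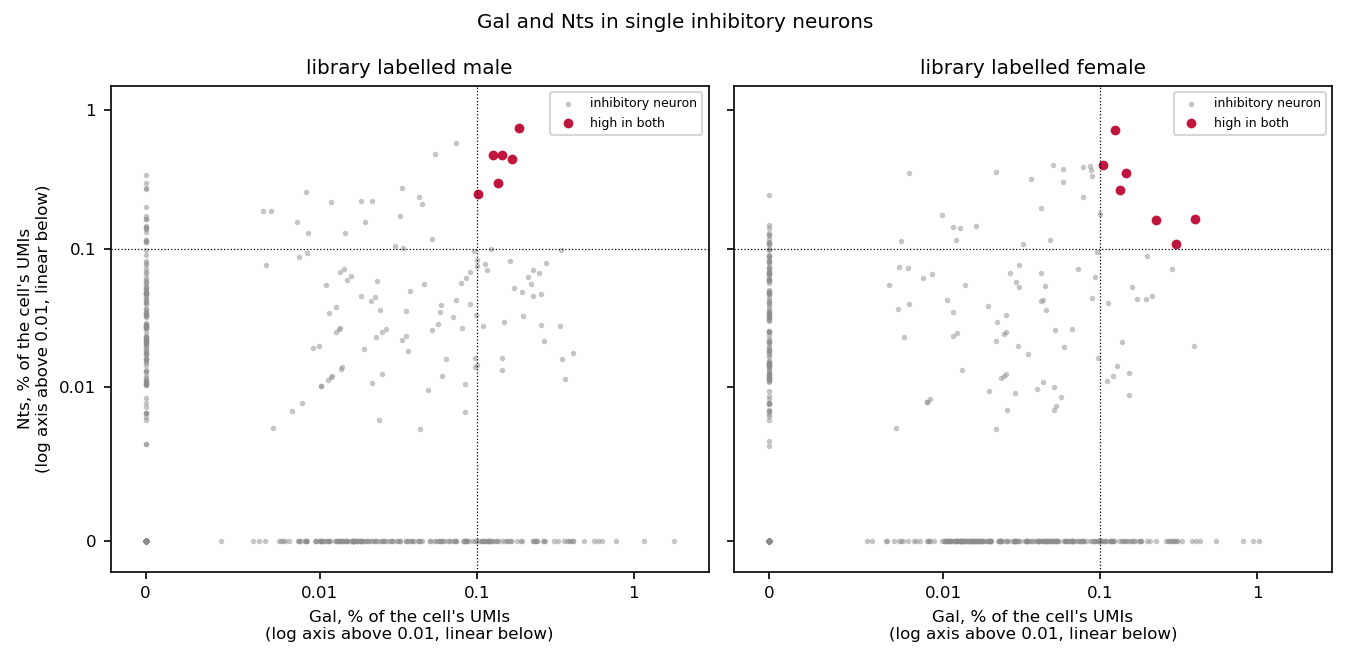
Share of each inhibitory neuron's UMIs from Gal (x axis, %) and Nts (y axis, %), on axes that are logarithmic above 0.01 and linear below, with dotted lines at 0.1% and red points for cells high for both. The 6 double-high cells of the library labelled male (left) and 7 of the library labelled female (right) stand apart from the many cells on either axis, which have 0 UMIs of 1 peptide.

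Gal-high neurons were set against all other inhibitory neurons, leaving Gal itself unread. Nts had 312 and 200 UMIs in Gal-high neurons, or 520 and 404 CPM, and 1092 and 1299 UMIs in the others, or 149 and 145 CPM. Nts was higher in both libraries, by 1.67 ± 0.10 on the log2 scale (edgeR adjusted p = 1.64e-61, DESeq2 adjusted p = 5.67e-21), with 3.86% of 12063 genes called, 2.25% higher and 1.62% lower. The double-high cells supplied 70.5% and 84.0% of those Nts UMIs. Under the stricter cell filter the value was -0.20 (edgeR adjusted p = 0.789), with Gal-high set at 0.2% of UMIs it was 0.17 (0.875), and without cluster 22 it was 0.95 ± 0.15 (edgeR adjusted p = 3.63e-08). The receptors did not pass in the same test: Galr1 1.29 ± 0.53 (adjusted p = 0.186, from 4 and 10 UMIs in Gal-high neurons), Ntsr1 -0.21 (0.863) and Ntsr2 0.47 (0.594), all by edgeR.

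Other peptides were also unevenly spread between Gal-high and other inhibitory neurons. Of 23 neuropeptide genes tested 6 were higher and 1 lower, where 2.25% and 1.62% of all genes tested were. The list's median was 0.16, against -0.0036 for all genes tested. Crh, corticotropin-releasing hormone, had 102 and 133 CPM in Gal-high neurons and 13.9 and 14.5 CPM in the others, a change of 3.06 ± 0.20. The anorexigenic precursor Cartpt rose by 1.84 ± 0.08 (1270 and 608 CPM against 274 and 244 CPM), the tachykinin precursor Tac1 by 1.15 ± 0.11, cholecystokinin, Cck, by 1.61 ± 0.37 and the granin-like Vgf by 0.36 ± 0.08. Ghrh (2.03 ± 0.29) and Sst (-0.67 ± 0.11) were called with opposite directions in the libraries, 3.10 and -1.37 for Ghrh and -3.10 and 0.54 for Sst. DESeq2 called Crh, Tac1 and Cartpt. The double-high cells supplied 93.3% and 97.3% of the Cartpt UMIs and 56.9% and 47.7% of the Vgf UMIs of Gal-high neurons. Without them, an alternative added after these values were seen, Cartpt had 93.2 and 18.2 CPM in Gal-high neurons against 274 and 244 CPM in the others and was lower (-2.13 ± 0.16, edgeR adjusted p = 5.71e-36), as was Vgf (-0.57 ± 0.10, 6.4e-06). Crh (2.37), Tac1 (0.69) and Cck (1.76) were still called higher. In this alternative the double-high cells were left out of the Gal-high neurons only. The others kept the 36 and 33 neurons high for Nts and not Gal, which held 1207 of their 2002 and 1169 of their 2183 Cartpt UMIs. The lower Cartpt and Vgf values are therefore relative to a group that holds Nts-high neurons. A comparison with neurons high for neither peptide was not tested.

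Transcription factors of the hypothalamus were called lower more often than higher in Gal-high neurons. Of 22 tested, 11 were lower and 2 higher, where 1.62% and 2.25% of all genes tested were. Their median was -1.93, against -0.0036 for all genes tested. Some of the lower ones had few UMIs in Gal-high neurons, such as Lhx6 (1 and 2), Sp8 (0 and 1) and Lhx1 (0 and 1). The lower ones included Meis2 (34.0 ± 3.32 CPM in Gal-high neurons against 141 ± 1.15 CPM in the others, log2 change -2.03 ± 0.20) and Six3 (-1.93 ± 0.28). Isl1, a LIM homeobox factor, was higher by 0.51 ± 0.12, and Tcf7l2, an effector of Wnt signalling, by 1.61 ± 0.19, although its CPM were 135 and 38.4 in Gal-high neurons and 29.8 and 28.9 in the others, and DESeq2 gave an adjusted p of 1.0. DESeq2 called 3 of the lower factors, Meis2, Six3 and Otp. None of the 6 processing or 5 breakdown genes was called by edgeR or DESeq2, and 1 of the processing genes and none of the breakdown genes had an unadjusted edgeR p under 0.05.

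Besides Crh, Cartpt, Nts and Tcf7l2, the genes with the highest changes in Gal-high neurons were Fam46a (1.73 ± 0.20), the nuclear receptor Rorb (1.60 ± 0.15), the calcitonin receptor Calcr (1.46 ± 0.19) and the alpha-2A adrenergic receptor Adra2a (1.37 ± 0.21). Without the double-high cells Calcr (0.094, edgeR adjusted p = 0.946) and Adra2a (0.49, 0.456) were not called, and Calcr had 11.0 and 65.8 CPM in Gal-high neurons against 30.5 and 37.9 CPM in the others. Fam46a (1.80), Rorb (1.59) and Tcf7l2 (1.76) kept their calls. The others again kept the neurons high for Nts and not Gal. Those neurons held 92 of 223 and 160 of 339 Calcr UMIs of the others, and 41 of 192 and 85 of 263 Adra2a UMIs. The lost calls therefore do not show that both changes came from the double-high cells alone. Among the lowest, besides Meis2 and Six3, were Lhx1os (-2.43 ± 0.33), the neurofilament gene Nefm (-1.42 ± 0.21), the synaptotagmin Syt2 (-1.37 ± 0.21), the calcium pump Atp2b4 (-1.35 ± 0.19) and Gda (-1.27 ± 0.23). Rorb had 135 and 162 CPM in Gal-high neurons and 47.8 and 51.3 CPM in the others.

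In Nts-high neurons against the other inhibitory neurons, Gal had 133 and 206 UMIs, or 352 and 497 CPM, against 1826 and 1588 UMIs, or 242 and 176 CPM. It was higher by 1.09 ± 0.13 (edgeR adjusted p = 4.64e-07), with 9.68% of 12153 genes called (5.47% higher and 4.2% lower), and the value turned to -0.25 (edgeR adjusted p = 0.950) without cluster 22 and to -0.09 (0.874) with the stricter cell filter, while thinning left 0.81 (0.373). Ntsr1 had 4 and 3 UMIs in Nts-high neurons and 194 and 222 in the others, a change of -1.47 ± 0.47 (edgeR adjusted p = 0.0414), which DESeq2 did not call (0.578) and which was lost without cluster 22 (edgeR adjusted p = 0.902). Galr1 (0.938) and Ntsr2 (1.0) were not called by edgeR.

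Peptide and processing genes also differed between Nts-high and other inhibitory neurons, in a comparison that rests on cluster 22. Without it, 17 and 14 Nts-high neurons were left and 4 genes were called in all, against 1176 with it. Of 23 neuropeptide genes 6 were higher and 3 lower in the edgeR test, where 5.47% and 4.2% of all genes tested were. The list's median was -0.13, against -0.04 for all genes tested. Cartpt had 5078 and 3525 CPM in Nts-high neurons and 112 and 113 CPM in the others (5.27 ± 0.08). Crh rose by 3.34 ± 0.25, Tac1 by 2.60 ± 0.09, Vgf by 2.43 ± 0.07, and the opioid precursors Penk by 1.77 ± 0.12 and Pdyn by 1.60 ± 0.40. Somatostatin, Sst, was lower, at 5.30 and 43.4 CPM against 370 and 277 CPM (-3.63 ± 0.26), as was Ghrh (-2.52 ± 0.75), while Cck had 0 UMIs in Nts-high neurons. DESeq2 called 5 of the higher peptides, without Pdyn, and none of the lower ones.

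Of the 6 processing genes, Pcsk1 was higher in Nts-high neurons by 3.08 ± 0.32 (58.2 ± 3.85 CPM against 7.08 ± 1.24 CPM, n = 2 libraries), Pam by 0.78 ± 0.15 and the carboxypeptidase Cpe by 0.31 ± 0.07, and Pcsk2 was lower (-0.97 ± 0.22). The endothelin-converting enzymes Ece1 (1.14 ± 0.19) and Ece2 (0.60 ± 0.13), which also cleave neurotensin, were the 2 called of 5 breakdown genes. Among all genes tested 9.68% were called. Of 24 receptor genes 6 were higher, where 5.47% of all genes tested were. Among them were the melanocortin receptors Mc3r (3.08 ± 0.50, from 4 and 24 UMIs in Nts-high neurons) and Mc4r (2.91 ± 0.62, from 4 and 10). The neuropeptide Y receptors Npy1r (2.40 ± 0.30, from 18 and 27) and Npy5r (2.14 ± 0.39, from 15 and 12) and Crhr2 (2.08 ± 0.54, from 11 and 4) were higher too. The tachykinin receptor Tacr1 was lower (-2.81 ± 0.74, from 0 and 2 UMIs). Of 4 dopamine genes tested 3 were lower, where 4.2% of all genes tested were. These were Slc18a2 (-2.12 ± 0.42, from 2 and 5 UMIs in Nts-high neurons), Ddc (-2.08 ± 0.42, from 3 and 4) and Th (-1.37 ± 0.37, from 6 and 5). DESeq2 called Pcsk1 and Ece1, 3 of the 6 higher receptors and none of the dopamine genes.

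The genes with the highest changes in Nts-high neurons also included the activin receptor Acvr1c (4.48 ± 0.22), Calcr (4.31 ± 0.13), Kremen1 (3.94 ± 0.37), Rasgrp1 (3.90 ± 0.16), Adra2a (3.27 ± 0.18) and Diaph3 (3.19 ± 0.30). The lowest were Six3 (-5.60 ± 0.59), Sst, Sncg (-3.58 ± 0.35), Lmo4 (-3.32 ± 0.46), Gda (-3.22 ± 0.37), Necab1 (-2.66 ± 0.39), Nrep (-2.54 ± 0.39) and Meis2 (-2.50 ± 0.25). Of 22 transcription factors 9 were lower and 2 higher (Dlx1 1.20 ± 0.13 and Isl1 0.96 ± 0.12), where 4.2% and 5.47% of all genes tested were. Some of the lower ones had few UMIs in Nts-high neurons, such as Otp (1 and 1) and Lhx6 (2 and 0). The Gal-high and Nts-high comparisons share most of their other inhibitory neurons.

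**Figure D4:**
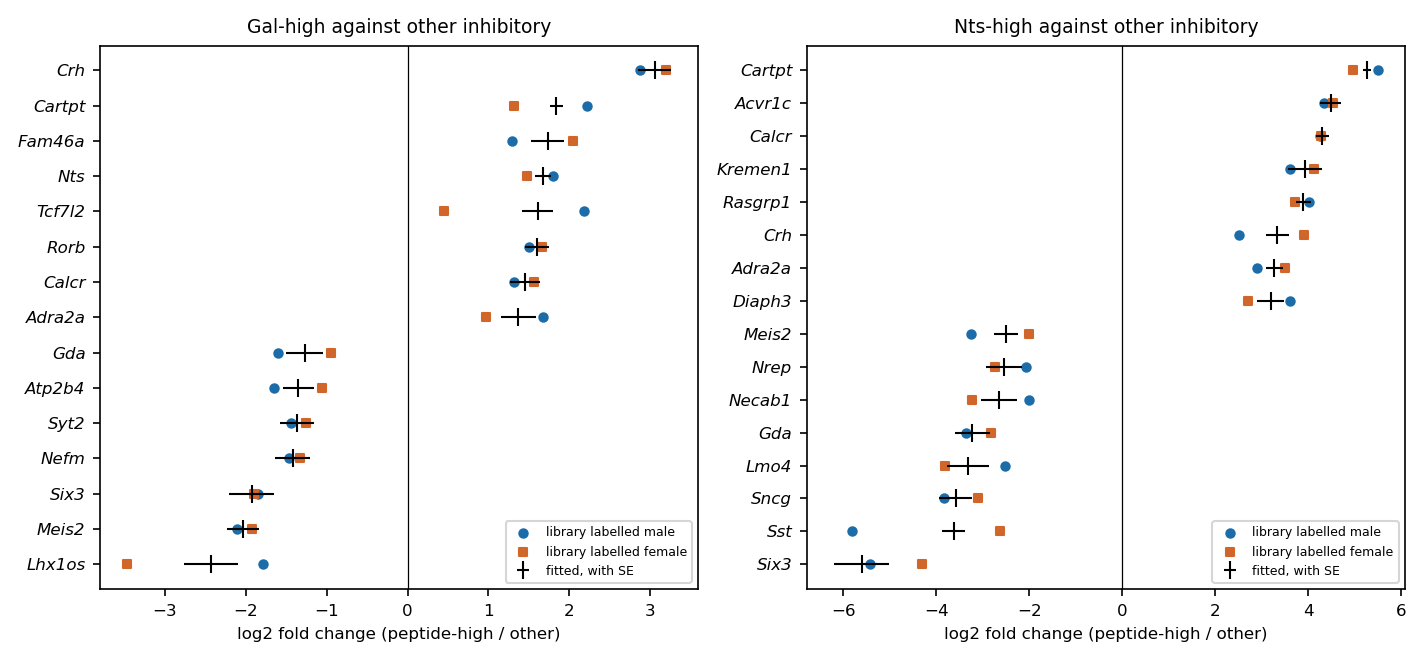
Log2 fold changes of the highest and lowest named genes reported here in Gal-high neurons (left) and Nts-high neurons (right) against the other inhibitory neurons, with blue circles for the library labelled male, orange squares for the library labelled female and black lines for the fitted value with its SE. The rule that chose these genes required both libraries to lie on the same side of 0. Crh is at the top on the left and Cartpt at the top on the right.

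Neurons high for Gal and not Nts (79 and 62 cells) were also compared directly with neurons high for Nts and not Gal (36 and 33 cells). The receptors had too few UMIs to be tested: Ntsr1 had 14 and 7 in Gal-high neurons and 3 and 2 in Nts-high neurons, Galr1 4 and 10 against 3 and 2, and Ntsr2 7 and 16 against 3 and 8. Of 6798 genes tested 8.41% were called, 4.05% higher in Gal-high neurons and 4.37% lower. Cartpt had 93.2 and 18.2 CPM in Gal-high neurons and 3716 and 3245 CPM in Nts-high neurons (-5.89 ± 0.12), and Vgf, Penk and Tac1 were lower (-2.59, -1.72 and -1.58). Sst was higher by 3.21 ± 0.30, with 45.7 and 422 CPM against 3.08 and 47.2 CPM, and Tcf7l2 by 5.73 ± 0.62. The tyrosine hydroxylase gene Th and the decarboxylase gene Ddc were higher by 1.73 ± 0.44 and 1.84 ± 0.61. DESeq2 kept the 5 peptides and Tcf7l2 and gave no adjusted p for Th or Ddc.

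Ntsr1 stood out in Hcrt-high neurons, the orexin cells known as targets of neurotensin-producing LHA neurons. It had 72 and 108 UMIs in Hcrt-high neurons, or 63.2 and 79.7 CPM, and 80 and 109 UMIs in the other excitatory neurons, or 16.4 and 18.7 CPM. It was higher by 2.28 ± 0.17 on the log2 scale (edgeR adjusted p = 1.61e-22, DESeq2 adjusted p = 8.20e-10), with 40.9% of 11834 genes called in this comparison (21.3% higher and 19.6% lower). Hcrt-high neurons were deeper, at a median of 16101 and 18593 UMIs against 7811 and 8097, and thinning left Ntsr1 in 13.7% and 21.9% of Hcrt-high cells, against 4.52% and 5.18% of other excitatory cells. TMM scaling moved the median gene by 0.25 on the log2 scale here, by 0.26 for Pmch-high neurons and by 0.15 for astrocyte-like cells, so the fitted changes are relative to those shifts.

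Nts itself had 40.4 and 28.8 CPM in Hcrt-high neurons against 26.0 and 18.5 CPM in other excitatory neurons (0.88 ± 0.20, edgeR adjusted p = 1.46e-04), but DESeq2 gave 0.167 and the stricter cell filter turned the value to -0.72 (edgeR adjusted p = 0.101). Gal had 16.7 and 12.5 CPM in Hcrt-high neurons against 27.6 and 29.3 CPM (-0.73 ± 0.25, edgeR adjusted p = 0.0117), and with Hcrt-high set at 0.1% of UMIs it turned to 1.17 (7.32e-09). Galr1 had 1 and 1 UMIs in Hcrt-high neurons and 23 and 25 in the others, a ratio of 0.179 (95% counting interval 0.0211 to 0.682), which edgeR called (adjusted p = 0.0370) and DESeq2 did not (0.464). Ntsr2 had a log2 change of 0.02 (adjusted p = 0.956, edgeR). Of the processing genes, Pcsk1 (4.67 ± 0.13), Pam (2.28 ± 0.11) and Pcsk2 (0.51 ± 0.10) were higher in Hcrt-high neurons and Pcsk5 lower (-3.78 ± 0.65). Sort1 was lower (-0.82 ± 0.16).

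Pmch-high neurons had little Ntsr1, with 5 and 3 UMIs against 80 and 109 in the other excitatory neurons (-2.16 ± 0.42, edgeR adjusted p = 3.97e-05), where 37.3% of 11798 genes were called (19.7% higher and 17.6% lower). Nts was lower as well, at 4.88 and 4.71 CPM against 26.0 and 18.5 CPM (-1.97 ± 0.35, edgeR adjusted p = 1.03e-05). DESeq2 called neither (0.0788 and 0.0634), thinning ended the Ntsr1 call (edgeR adjusted p = 0.370), and with Pmch-high set at 0.1% of UMIs the Nts change was -0.20 (0.561). Gal (47 and 28 UMIs against 135 and 171) had a change of 0.34 ± 0.21 that did not pass (edgeR adjusted p = 0.208). Galr1 had 1 and 0 UMIs in Pmch-high neurons, a ratio to the others of 0.0894 (95% counting interval 0.00222 to 0.523), called by edgeR (adjusted p = 0.0129) and not by DESeq2 (0.368). The Hcrt-high and Pmch-high comparisons share their excitatory controls, so their values are given side by side only.

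**Figure D5:**
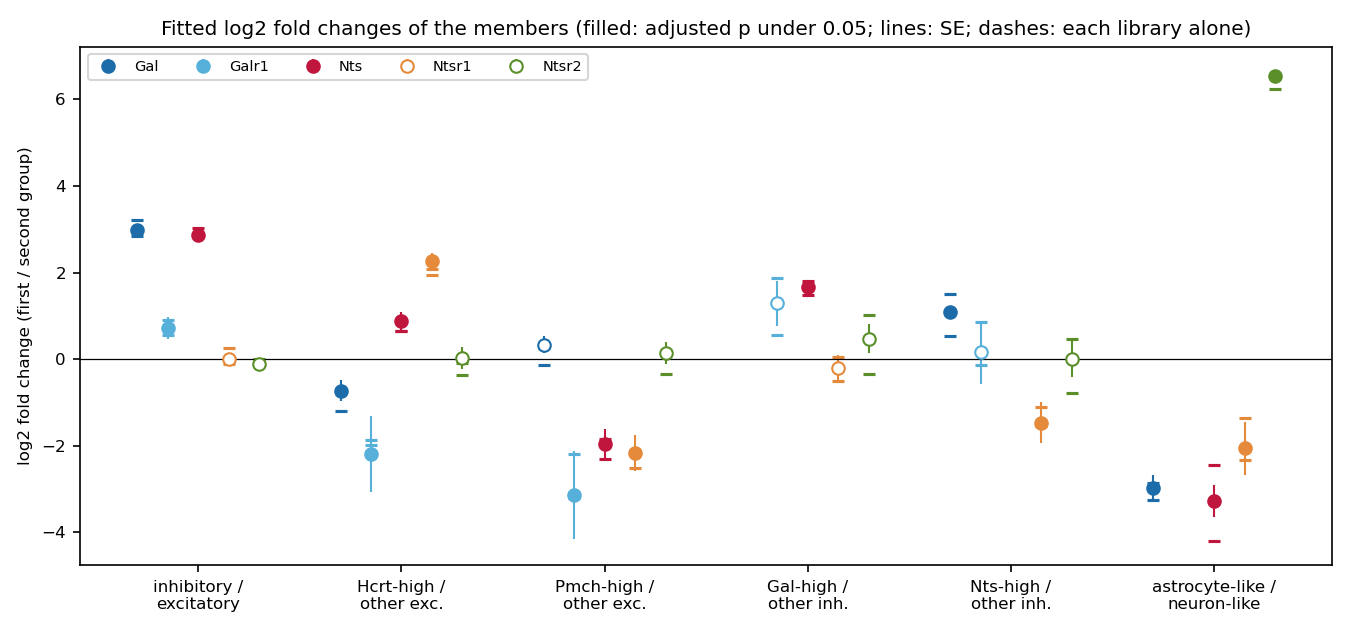
Fitted log2 fold changes of the 5 genes in 6 comparisons, first group over second, with filled points for adjusted p under 0.05 by edgeR, lines for the SE and dashes for each library alone. Gal and Nts are high in inhibitory neurons, Ntsr1 is high in Hcrt-high and low in Pmch-high neurons, and Ntsr2 reaches 6.54 in astrocyte-like cells.

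Ntsr2 was highest in astrocyte-like cells in both libraries. Astrocyte-like cells (118 and 185) had 460 and 809 Ntsr2 UMIs, or 1584 and 1559 CPM, and neuron-like cells 295 and 416 UMIs, or 17.1 and 20.6 CPM. The change was 6.54 ± 0.13 on the log2 scale, with an adjusted p too small for edgeR to represent, and 46.2% of 13718 genes were called (21% higher and 25.3% lower). Of the astrocyte-like cells 97.5% and 97.3% had an Ntsr2 UMI, at a median depth of only 2260 and 2543 UMIs, and in the 12 and 49 cells deep enough for thinning the shares were 100% and 95.9%. Both astrocyte-like clusters, 10 and 26, had it, at 1595 and 1564 CPM and at 1459 and 1517 CPM. All 6 astrocyte markers were detected, summing to 11214 and 11846 CPM in astrocyte-like cells against 381 and 377 CPM in neuron-like cells. The unnamed cluster 25 (14 and 15 cells) had 447 and 404 CPM of Ntsr2 beside mature oligodendrocyte and astrocyte markers.

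The other members were lower in astrocyte-like cells or too scarce to say. Gal had 4 and 8 UMIs there (-2.97 ± 0.30, edgeR adjusted p = 1.35e-21), Nts 5 and 2 (-3.28 ± 0.37, 4.37e-18) and Ntsr1 2 and 2 (-2.06 ± 0.60, 0.00193). Nts (10.5 ± 9.45 CPM) differed from its level in mature oligodendrocyte-like cells (4.86 ± 3.53 CPM) by less than the spread of the libraries. Gal (14.6 ± 1.16 against 6.73 ± 0.894 CPM) and Ntsr1 (5.37 ± 2.15 against 0.692 ± 0.458 CPM) had higher means than in those cells. The exact Poisson intervals of Gal and of Ntsr1 overlapped between these cell groups in each library, so counting error leaves these differences undecided. For Ntsr1 they were 0.834 to 24.9 and 0.467 to 13.9 CPM in astrocyte-like cells, against 0.00931 to 2.05 and 0.209 to 2.97 CPM. With stricter cell filters none of the changes of Gal, Nts and Ntsr1 against neuron-like cells passed. Galr1 had 0 UMIs in astrocyte-like cells, against 74 and 102 in neuron-like cells. With 3 counts over the group as its floor, it was at least 1.27-fold lower, and it did not pass (edgeR adjusted p = 0.0519). Of the companion genes, Sorl1 was higher by 0.85 ± 0.15 and Ece1 by 1.38 ± 0.19 in astrocyte-like cells, while Pcsk1 and Pcsk2 were lower (-4.44 ± 0.80 and -3.53 ± 0.26). Of the other receptor genes of the family, Galr2 had 0 and 0 UMIs in inhibitory and 3 and 5 in excitatory neurons, and Galp and Galr3 had none in the cells compared.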

How the data were processed

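The deposited counts are UMIs per gene and barcode in 2 filtered 10x matrices, made with Cell Ranger 2.2.0 per the submitters' processing notes; neither the use of strand in counting nor the gene annotation is given in the sources used here. Barcodes with under 500 genes or over 20% mitochondrial UMIs were removed (163 and 163), then doublets at the expected rate of 0.8% per 1000 cells (90 and 110, Scrublet in scanpy 1.11.5, whose own threshold marked 48 and 12). Cells were clustered on 2000 variable genes without the members and named from marker genes. UMIs were summed per library and cell group and tested with edgeR 4.0.16 in R 4.3.3 (quasi-likelihood test, TMM, low-count filter, library as block, Benjamini-Hochberg adjustment over all genes tested). The block pairs groups from the same pool of animals. DESeq2 1.42.0, other thresholds, stricter cells (at least 1000 genes, at most 10% mitochondrial UMIs), thinning, leaving out each library and other cell sets were alternatives; those without cluster 22 or the double-high cells and 2 of the overlap in stricter cells were chosen after the data had been seen. Scripts were tested on simulated data. Named genes were the members, fixed companion lists and the 8 highest and 8 lowest called genes with 50 CPM or more and the same direction in both libraries; a few genes that the rule or the lists name are not reported here. The members and lists were chosen with earlier results of these data known. Intervals are exact and cover counting error only. Sequences are RefSeq's, on GRCm38.p6.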

Additional observations from a re-analysis of the deposited data

Results flagged for a closer look

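For 7 results not called in their comparison, the libraries moved in opposite directions on the log2 scale; these differences were not tested. In inhibitory against excitatory neurons, Ntsr1 was 0.26 in the library labelled male and -0.12 in the library labelled female; without Hcrt-high and Pmch-high neurons the fitted value was 0.47 (edgeR adjusted p = 0.0176). In Pmch-high against other excitatory neurons, Ntsr2 was 0.10 and -0.34, and Gal 0.26 and -0.13; with Pmch-high set at 0.1% of UMIs Gal was 0.63 (edgeR adjusted p = 0.00757). In Gal-high against other inhibitory neurons, Ntsr1 was 0.042 and -0.50, and Ntsr2 -0.35 and 1.02. In Nts-high against other inhibitory neurons, Ntsr2 was -0.79 and 0.46, and Galr1 0.86 and -0.13.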

How the results depend on the processing

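The fit on 2 libraries has 1 residual degree of freedom, and counts of called genes depend on the settings, while Gal, Nts (inhibitory neurons), Ntsr1 (Hcrt-high) and Ntsr2 (astrocyte-like) kept their calls in the alternatives with a test. For inhibitory against excitatory neurons 3166 genes were called, 921 with no replicate block (no pairing by library), 551 with DESeq2, 1595 without Hcrt-high and Pmch-high neurons and 1110 thinned. For Hcrt-high neurons 4845 became 1606 with DESeq2 and 1157 thinned, and for Pmch-high 4403 became 1393 and 1009. For Gal-high neurons 466 became 756 at 0.05% of UMIs, 99 at 0.2%, 170 with no block, 47 with DESeq2, 223 with stricter cells and 66 thinned. For Nts-high neurons 1176 became 402 at 0.2%, 303 with DESeq2, 4 without cluster 22, 728 with stricter cells and 94 thinned. For Gal-high against Nts-high neurons 572 became 358 at 0.05%, 257 with no block, 35 with DESeq2 and 94 thinned. For astrocyte-like cells 6342 became 3905 with DESeq2, 157 with stricter cells and 2069 thinned. The overlap share of Gal-high neurons in the library labelled male (7.06%) became 32.6% with 1 or more thinned UMIs (29.8% in stricter cells), 18.2% at 0.05%, and 0 at 0.2% or in stricter cells. In the library labelled female (10.1%) it became 20.7% thinned, 17.1% at 0.05%, and 0 at 0.2% or in stricter cells. Nts in inhibitory neurons averaged 122 CPM in stricter cells. Directions turned for Gal in Hcrt-high neurons at 0.1% (1.17), Nts in Hcrt-high (-0.72) and Gal-high neurons (-0.20) in stricter cells, and Gal in Nts-high neurons without cluster 22 (-0.25) or in stricter cells (-0.090). The causes were not tested.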
